A study of Mus musculus with 4 samples.

Results

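The genes described here are 37 members of the amino acid response, the transcriptional programme driven by the factor ATF4: ATF4 itself and related factors, its stress targets, enzymes of serine, one-carbon and other amino acid metabolism, and amino acid transporters. They were chosen by name as known genes of the pathway, with earlier results of these data known, and all 37 were among the 23359 rows of the deposited expression table. RNA was sequenced from TICs (liver tumor-initiating stem-like cells), a culture isolated from liver tumours of C57BL/6 mice and grown in DMEM/F12 with serum, glutamine, non-essential amino acids, EGF, nucleosides and dexamethasone. The vehicle culture received no compound, the second culture received all-trans retinoic acid (ATRA) at 5 µg/ml, the third suberoylanilide hydroxamic acid (SAHA) at 0.5 µg/ml, and the fourth both compounds. The treatments lasted 16 hours, and the time of the vehicle culture was not given in the sources used here. ATRA activates retinoic acid receptors, and SAHA (vorinostat) inhibits histone deacetylases. Each of the 4 groups had 1 library, so the differences below have no replicate check, no error and no p-value.

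ATF4 is made when kinases that sense amino acid shortage, unfolded protein, haem shortage or double-stranded RNA phosphorylate the translation factor eIF2. General translation then slows, while the Atf4 message is translated more efficiently through its upstream reading frames, and the Atf4 gene is also regulated at the level of transcription. The protein pairs with C/EBP factors on composite C/EBP-ATF elements and raises the transcription of genes that make or import amino acids. Messenger RNA was measured here, not translation, so ATF4 protein and eIF2 phosphorylation are not covered by these values.

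Levels are given in FPKM, in which the fragments of a gene are divided by transcript length and by the mapped fragments of the library. Differences are given as differences in log2(FPKM + 1), a scale that understates the change of low genes, and the mark for calling a gene higher or lower was a difference of 1, which is 2-fold on that scale. Only genes whose mean over the libraries reached 1 FPKM were counted. There were 8616 such genes, of which 34 were members. The 3 members below that mean were Cbs, Slc7a3 and Stc2. The lowest values step in whole fragments, and by that estimate 1 FPKM over a kilobase was worth 96.2 to 102 fragments in every library. The step was looked for only within 1 preset range, the same for all libraries. The estimate could not leave that range, so it cannot show whether depth was alike. None of the 7 hepatocyte markers reached a mean of 1 FPKM, and their summed level was 0.181 to 0.446 FPKM per library. Lymphocyte markers summed to at most 0.0802 FPKM, and 1 of 5 macrophage and 1 of 5 endothelial markers (Cd68 and Flt1) reached the mean. The 7 mesenchymal and stellate markers, of which 4 did and Col1a1 and Col1a2 did not exceed 0.0416 FPKM, summed to 635 FPKM in vehicle, 492 under ATRA, 344 under SAHA and 391 under both. Most of this was Vim, at 562, 432, 319 and 362 FPKM in that order of libraries. The 5 cholangiocyte markers summed to 340, 572, 942 and 436 FPKM, nearly all of it Spp1. These sums move with the treatments, and their part in the members' values was not tested. FPKM outside small RNAs, histone genes and the 10 highest rows summed to 84971 in the SAHA library and to 93003 to 103294 in the others. In bulk RNA, fewer cells of a type and less RNA per cell cannot be told apart.

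The programme was abundant with vehicle and low with SAHA. With vehicle, 35 of the 37 members were at 1 FPKM or more and 22 at 10 FPKM or more, and with ATRA the counts were 34 and 18. With SAHA they were 25 and 5, and with both compounds 28 and 10. Of all 23359 genes, the vehicle library had 8542 at 1 FPKM or more and the SAHA library 7781. The ATRA library had 8388 and the combination library 8002. All genes were not counted at 10 FPKM, so the member counts at that level have no such comparison. The median member stood at 11.9 FPKM in vehicle, 9.80 under ATRA, 2.14 under SAHA and 3.80 under both. A median level of all genes was not computed. No member was highest in the SAHA library, and 31 of the 37 were lowest there. Among the counted genes the SAHA library held the lowest value of 30 of 34 members and of 37.05% of all 8616 genes, and the highest value of 0 members and of 15.4% of all genes. The combination library held the lowest value of 4 counted members and of 18.6% of all counted genes. It held the highest value of 2 counted members and of 35.9% of all counted genes. Over all 37 members its counts were 5 lowest and 3 highest.

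**Figure D1:**
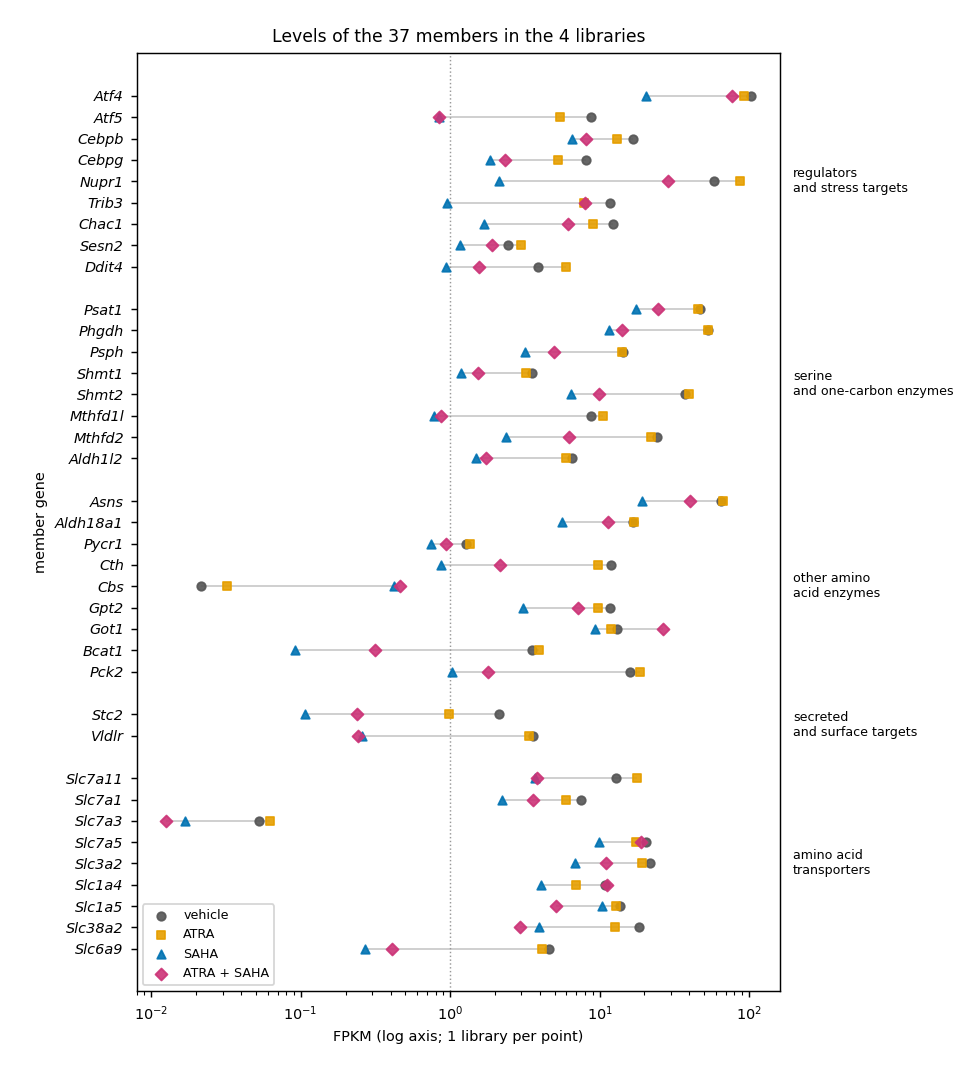
FPKM (log axis) of each of the 37 members with vehicle, with each compound and with both, 1 point per library, grouped by role. The points of vehicle and ATRA lie close together, and the SAHA point is the lowest for 31 members. On this axis the combination point is nearer the SAHA point than the vehicle point for all 8 serine and one-carbon enzymes. It is nearer the vehicle point for Atf4, Nupr1, Trib3, Chac1, Sesn2, Asns, Aldh18a1, Gpt2, Got1, Slc7a5 and Slc1a4.

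Of the 34 counted members, 0 were higher and 0 were lower with ATRA than with vehicle, where 0.917% of all counted genes were higher and 1.20% lower. Under SAHA 29 were lower and 0 higher, where 16.0% of all counted genes were lower and 7.88% higher. The 5 that did not pass the mark were Slc7a5 (-0.99), Sesn2 (-0.66), Got1 (-0.46), Pycr1 (-0.38) and Slc1a5 (-0.36), all of them below 0. With both compounds 17 were lower and 0 higher than with vehicle, where 12.6% of all counted genes were lower and 11.1% higher. When FPKM were rescaled to totals without small RNAs, histone genes and the 10 highest rows, 28 members were lower with SAHA and 23 with both. Of the 8544 genes counted after rescaling, 1216 were lower with SAHA and 1250 with both. As a median, the difference of the members from vehicle was -0.11 with ATRA, -1.69 with SAHA and -0.99 with both, and the medians of all counted genes were -0.00055, -0.12 and 0.04. These 3 comparisons share the single vehicle library.

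**Figure D2:**
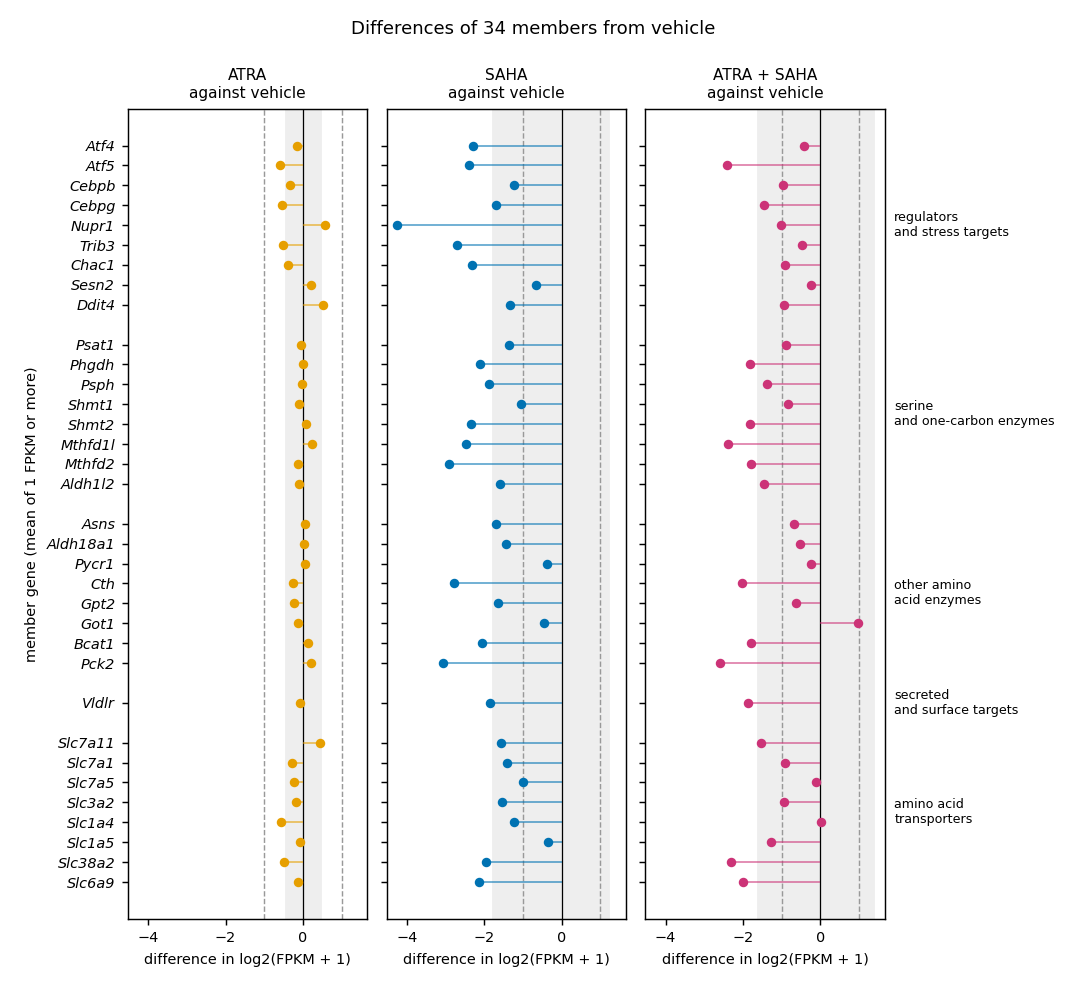
Difference from vehicle in log2(FPKM + 1) for the 34 members with a mean of 1 FPKM or more, with ATRA (left), SAHA (middle) and both (right). Dashed lines mark a difference of 1 in either direction and grey bands the middle 90% of all 8616 counted genes. All 34 points lie between the dashed lines with ATRA, 29 lie beyond the lower line with SAHA and 17 with both.

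The regulators and stress targets were low with SAHA and differed among themselves in the combination. Atf4, the central transcription factor of the response (chromosome 15, 80255184 to 80257541, plus strand, mm10), was at 103 FPKM in vehicle, 92.3 under ATRA, 20.3 under SAHA and 76.6 under both. The SAHA library was thus the low one, 5.06-fold under vehicle, and the combination stood at 74.5% of the vehicle level. Nupr1, a small stress-induced nuclear protein gene, was at 58.5, 86.5, 2.14 and 28.5 FPKM, in that order of libraries. It had the lowest difference of all members with SAHA (-4.24) and was 13.3-fold higher with both compounds than with SAHA alone, though still at 48.8% of vehicle.

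Trib3, a pseudokinase gene that dampens ATF4 activity, was at 11.7 FPKM in vehicle, 7.84 under ATRA, 0.946 under SAHA and 8.03 under both. Chac1, which encodes a glutathione-degrading enzyme, was at 12.3, 9.05, 1.68 and 6.11 FPKM. For both genes the combination was nearer the ATRA than the SAHA library and above the latter, 8.49-fold for Trib3 and 3.64-fold for Chac1. Ddit4 and Sesn2 encode stress-induced inhibitors of the growth kinase mTORC1. Ddit4 was at 3.90, 5.95, 0.943 and 1.56 FPKM, and Sesn2 at 2.44, 2.99, 1.17 and 1.92 FPKM, so that the highest value of each was with ATRA. Sesn2 was the 1 gene of this group of 9 that did not pass the 2-fold mark with SAHA (-0.66).

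The other transcription factors of the group were low in both libraries with SAHA. Atf5, a factor related to ATF4, was at 8.71 FPKM in vehicle, 5.42 under ATRA, 0.838 under SAHA and 0.838 under both. Its row spans the loci of 4 other rows, and reads of overlapping genes were not separated here. Cebpg, a C/EBP partner of ATF4, was at 8.16, 5.29, 1.84 and 2.33 FPKM. Cebpb, another C/EBP factor, was at 16.8, 13.1, 6.53 and 8.09 FPKM. These 3 genes were in both cases below 50% of the vehicle level, whereas Atf4 was below it in the SAHA library alone. Of the 9 regulators and stress targets, 8 were lower with SAHA and 3 with both compounds (Atf5, Cebpg and Nupr1, the last at -1.01). The shares of all counted genes were 16.0% and 12.6%. After rescaling, Cebpb (-1.11), Chac1 (-1.03) and Ddit4 (-1.03) also passed with both compounds, giving 6 of 9. Of all genes counted at that setting, 1250 of 8544 were lower with both.

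Every serine and one-carbon enzyme was lower with SAHA, 8 of 8, and 6 of 8 were lower than vehicle with both compounds. The shares of all counted genes were 16.0% and 12.6%. Phgdh, which encodes phosphoglycerate dehydrogenase, the entry step from glycolysis into serine synthesis (chromosome 3, 98313170 to 98339990, minus strand), was at 53.1 FPKM in vehicle, 53.3 under ATRA, 11.6 under SAHA and 14.2 under both. Psat1, the transaminase of the next step, was at 46.8, 45.4, 17.5 and 24.7 FPKM, and Psph, the phosphatase that completes serine, at 14.4, 14.1, 3.17 and 4.96 FPKM. The vehicle and ATRA values of these 3 genes differed by at most 0.04 on the log2 scale. With SAHA alone all 3 passed the 2-fold mark, and with both compounds Phgdh and Psph did while Psat1 did not (-0.90).

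Shmt2, the mitochondrial serine hydroxymethyltransferase that passes a carbon unit from serine to folate, was at 37.2 FPKM in vehicle, 39.4 under ATRA, 6.46 under SAHA and 9.93 under both. Its cytosolic counterpart Shmt1 was less abundant, at 3.54, 3.21, 1.18 and 1.54 FPKM, and its difference with SAHA (-1.06) was just past the 2-fold mark. It no longer passed with centring on the median of all counted genes (-0.94) or with rescaling (-0.99), which leaves 7 of the 8 enzymes. Over all genes, 1157 of 8616 were lower with SAHA with centring and 1216 of 8544 with rescaling. The Shmt2 row overlaps that of Ndufa4l2. Mthfd2, the mitochondrial methylene-tetrahydrofolate dehydrogenase, was at 24.2, 22.2, 2.38 and 6.23 FPKM. Mthfd1l, which releases formate from mitochondria, was at 8.83, 10.5, 0.779 and 0.864 FPKM, and Aldh1l2, a mitochondrial formyl-tetrahydrofolate dehydrogenase, at 6.50, 5.97, 1.48 and 1.74 FPKM. Mthfd2 was the 1 gene of these 8 that was higher with both compounds than with SAHA alone (1.10), and it was still at 25.7% of vehicle.

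The remaining amino acid enzymes were less uniform. Asns, asparagine synthetase (chromosome 6, 7675169 to 7693254, minus strand), was at 65.0 FPKM in vehicle, 67.6 under ATRA, 19.3 under SAHA and 40.4 under both. Gpt2, a mitochondrial alanine transaminase, was at 11.7, 9.78, 3.06 and 7.23 FPKM, and Aldh18a1, which starts proline synthesis from glutamate, at 16.9, 17.1, 5.59 and 11.3 FPKM. In these 3 genes the combination was 2.03- to 2.36-fold above SAHA alone and at 61.6% to 67.2% of vehicle. Pycr1, the last enzyme of proline synthesis, was low throughout at 1.28, 1.35, 0.746 and 0.941 FPKM.

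Pck2, Cth and Bcat1 were low with SAHA and with both compounds. Pck2, the mitochondrial phosphoenolpyruvate carboxykinase, was at 16.0 FPKM in vehicle, 18.5 under ATRA, 1.04 under SAHA and 1.81 under both, and after Nupr1 had the second-lowest difference with SAHA (-3.06). Cth, which makes cysteine from cystathionine, was at 11.9, 9.80, 0.864 and 2.16 FPKM. Bcat1, the cytosolic branched-chain transaminase, was at 3.54, 3.95, 0.0916 and 0.313 FPKM. Each of these was under 20% of its vehicle level in both libraries with SAHA, as 18.2% for Cth was the highest such share.

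Got1 and Cbs had patterns unlike those of the genes above. Got1, the cytosolic aspartate transaminase (chromosome 19, 43499752 to 43524605, minus strand), was at 13.1 FPKM in vehicle, 11.9 under ATRA, 9.28 under SAHA and 26.6 under both. The combination was the high library, 2.02-fold above vehicle and 2.86-fold above SAHA, and Got1 was the 1 counted member that was higher with both compounds than with ATRA alone (1.10). Cbs, which makes the cystathionine that Cth cleaves, was at 0.0215, 0.0320, 0.418 and 0.464 FPKM, high in both libraries with SAHA but below 1 FPKM in all 4. Of the secreted and surface targets, Vldlr, a lipoprotein receptor gene, was at 3.56, 3.35, 0.257 and 0.241 FPKM, and Stc2, a secreted stanniocalcin, at 2.11, 0.990, 0.107 and 0.240 FPKM.

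Amino acid transporters were lower with SAHA in 6 of 8 counted genes and lower with both compounds in 4 of 8. Of all counted genes 16.0% were lower with SAHA and 12.6% with both compounds. Slc7a11, the cystine carrier xCT, was at 12.8 FPKM in vehicle, 17.8 under ATRA, 3.68 under SAHA and 3.80 under both. Slc3a2, the heavy chain that xCT and LAT1 share, was at 21.9, 19.2, 6.89 and 11.0 FPKM, and Slc7a5, the LAT1 chain for large neutral amino acids, at 20.6, 17.4, 9.88 and 18.9 FPKM. The LAT1 chain was thus at 91.5% of vehicle in the combination, and its partner chain at 50.3%. Slc7a1, a cationic amino acid carrier, was at 7.57, 6.01, 2.21 and 3.57 FPKM.

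The neutral amino acid carriers differed in pattern. Slc1a4 (ASCT1) was at 10.9 FPKM in vehicle, 7.01 under ATRA, 4.08 under SAHA and 11.1 under both, so that the combination equalled vehicle to within 0.03 on the log2 scale. Slc1a5 (ASCT2), which exchanges glutamine, was at 13.7, 12.9, 10.5 and 5.10 FPKM, and was the 1 counted member lower with both compounds but not with SAHA alone. Slc38a2 (SNAT2), a sodium-coupled carrier, was at 18.4, 12.8, 3.96 and 2.92 FPKM, and Slc6a9, the glycine carrier GLYT1, at 4.59, 4.13, 0.271 and 0.406 FPKM. Slc1a5 and Slc38a2 were lowest in the combination library, while Slc6a9 was lowest with SAHA. The Slc6a9 row overlaps that of Ccdc24. Slc7a3, another cationic carrier, did not exceed 0.0620 FPKM in any library.

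With both compounds, part of the programme stood above its level with SAHA alone. Of the 34 counted members 9 were higher and 0 lower in this comparison, where 3.04% of all counted genes were higher and 0.929% lower. The members had a median difference of 0.47, and all counted genes one of 0.14. The 9 were Atf4 (1.86), Nupr1 (3.23), Trib3 (2.21), Chac1 (1.41), Mthfd2 (1.10), Asns (1.02), Gpt2 (1.02), Got1 (1.42) and Slc1a4 (1.26). By role they were 4 of 9 regulators and stress targets, 1 of 8 serine and one-carbon enzymes, 3 of 8 other enzymes and 1 of 8 transporters. The difference between roles was not tested. With each comparison centred on the median of all counted genes, and also with rescaling, Asns, Gpt2 and Mthfd2 no longer passed the 2-fold mark, and 6 of the 9 did. All genes passing then were 191 of 8616 and 165 of 8544. A pseudocount of 0.1 in place of 1 gave 12 higher members, and 490 of 8616 genes. It added Aldh18a1, Bcat1 and Cth, all from the other enzymes, so the split by role depends on the pseudocount.

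**Figure D3:**
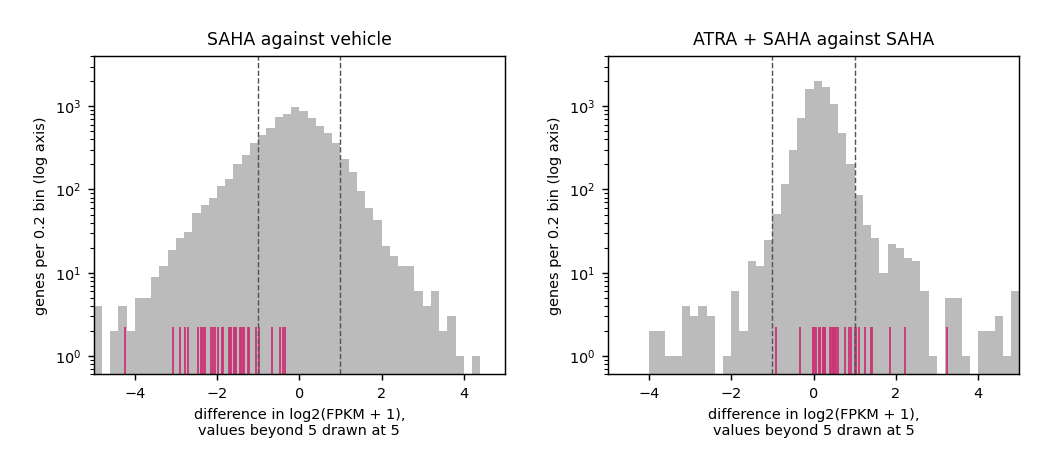
Histograms of the differences in log2(FPKM + 1) of all 8616 counted genes, on a log axis of genes per bin, for SAHA against vehicle (left) and both compounds against SAHA (right), with 1 red tick for each of 34 members. The ticks lie wholly below 0 on the left, with a median of -1.69, and on the right run from -0.91 to 3.23.

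Against ATRA alone, the combination was lower for 17 of 34 members and higher for 1, where 11.9% of all counted genes were lower and 10.5% higher. The median was -1.05, and 0.04 for all counted genes. The lowest were Pck2 (-2.80) and Mthfd1l (-2.62). The departure from additivity, the combination's difference from vehicle minus the sum of the differences with each compound, was 1 or more for 10 members and -1 or less for 0. Over all counted genes 4.69% had a departure of 1 or more and 1.73% of -1 or less. The median departure was 0.57 for the members, 0.41 with centring, and 0.15 for all counted genes without centring. Cth (1.01) and Slc7a5 (1.10) lay close to the mark, and the count was not recomputed with centring. The largest departures were those of Trib3 (2.73), Nupr1 (2.68), Atf4 (2.02) and Slc1a4 (1.83). Departures of Phgdh (0.27), Pck2 (0.26) and Vldlr (0.05) lay near 0. The departure rests on all 4 libraries and has no error.

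The sequence element through which ATF4 acts with C/EBP factors was looked for in RefSeq promoter windows, which hold 250 bases before and 50 after each annotated start (GRCm38.p6, the assembly called mm10). Windows were matched by symbol for 32 of the 37 members. The core TGATGNAA, read on both strands, was in at least 1 window of 10 of these 32 genes (31.3%), and in 4.51% of the 27025 genes of the whole table of windows. It was in 2.53% of the 6320 counted genes with a window. The form TTGCATCA, whose reverse complement is a special case of that core, was in 7 of the 32 and in 1.03% of all genes. The E-box CACGTG was in 3 of the 32 and in 8.09% of all genes, and the ER stress element ERSE (CCAAT, 9 bases of any kind, then CCACG) in 0 of the 32 and 0.137%. A match is a description of letters and not of binding, and the members were chosen partly because they are known ATF4 targets.

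The stretches below are shown because they carry the core within 250 bases before the start in 8 members. Capitals mark the core on either strand, the rest is flanking sequence, and each is written 5′ to 3′ on the strand of its gene. They lie, in order, at chr7:126625543-126625610 (minus), chr2:119351019-119351086 (plus), chr6:7693210-7693262 (minus), chr11:120643814-120643881 (minus), chr19:43524670-43524737 (minus), chr14:55540133-55540200 (plus), chr19:27216790-27216857 (plus) and chr3:50443623-50443709 (minus) of GRCm38.p6.
Nupr1: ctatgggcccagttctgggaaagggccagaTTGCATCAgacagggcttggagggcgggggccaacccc
Chac1: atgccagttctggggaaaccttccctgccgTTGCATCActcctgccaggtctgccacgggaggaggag
Asns: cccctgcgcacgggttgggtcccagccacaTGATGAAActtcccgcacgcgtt
Pycr1: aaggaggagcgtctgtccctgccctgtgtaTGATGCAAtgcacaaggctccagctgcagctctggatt
Got1: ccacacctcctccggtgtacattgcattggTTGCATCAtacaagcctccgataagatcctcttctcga
Pck2: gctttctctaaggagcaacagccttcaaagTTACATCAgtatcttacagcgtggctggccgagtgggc
Vldlr: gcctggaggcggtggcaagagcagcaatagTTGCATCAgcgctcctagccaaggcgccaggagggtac
Slc7a11: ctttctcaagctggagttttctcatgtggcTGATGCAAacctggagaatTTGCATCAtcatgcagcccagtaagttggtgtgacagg
In Slc7a11 the core occurs in both orientations, starting 66 and 47 bases before the start. In Nupr1, Pycr1, Got1 and Pck2 it starts 102 to 110 bases before it, and in Asns 23 bases before it. In Trib3 the core starts 15 bases after the start and in Slc1a4 it spans the start, so these 2 are not printed.

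**Figure D4:**
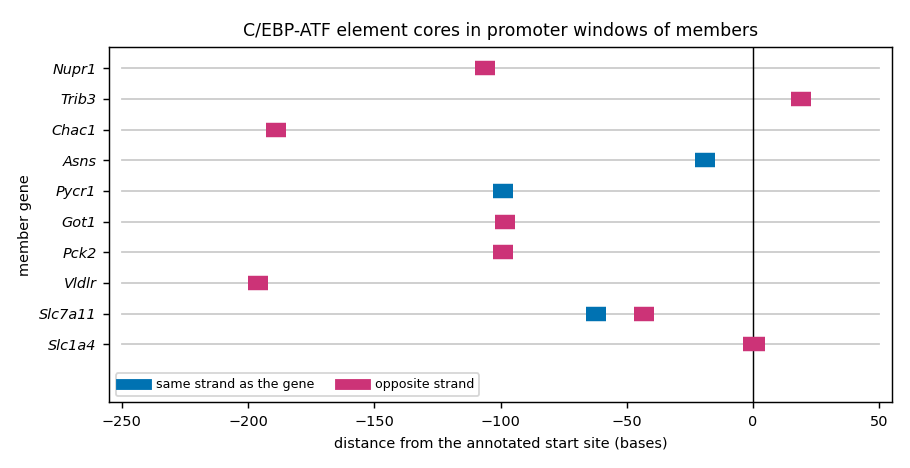
Position of each TGATGNAA core in the promoter windows of the 10 members that hold one, as distance in bases from the annotated start (vertical line). Blue bars are on the strand of the gene and red bars on the opposite strand. Of 11 cores, 9 lie wholly before the start.

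Members with and without the core were both low with SAHA. The 10 genes with it had a median difference of -1.78 from vehicle with SAHA, and 8 of them were lower. The 20 counted genes with a window but no core had a median of -1.79, and 19 were lower. Of all counted genes 16.0% were lower, with a median of -0.12. When both compounds were set against SAHA alone, 6 of the 10 with the core were higher (median 1.14), namely Nupr1, Trib3, Chac1, Asns, Got1 and Slc1a4, and 3 of the 20 without it (median 0.41), namely Atf4, Mthfd2 and Gpt2. Of all counted genes 3.04% were higher in this comparison, with a median of 0.14. With centring and with rescaling, Asns, Mthfd2 and Gpt2 no longer passed the 2-fold mark. With a pseudocount of 0.1, Aldh18a1 and Bcat1, which have a window but no core, passed it too, as did Cth, which has no window. Pck2, Vldlr, Slc7a11 and Pycr1 hold the core and were not among the higher members. This contrast was noticed in the data and was not tested.

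Genes outside the members were described from lists of the same and neighbouring pathways. The eIF2 kinase genes differed in direction: Eif2ak1 (HRI, the haem-regulated kinase) was at 3.10 FPKM in vehicle, 2.39 under ATRA, 7.52 under SAHA and 6.03 under both, in a row that overlaps those of Aimp2 and Ankrd61. Eif2ak2 (PKR, the kinase for double-stranded RNA and an interferon target) was at 6.41, 2.76, 1.03 and 0.983 FPKM. Eif2ak3 (PERK, the endoplasmic reticulum kinase) was at 0.922, 1.49, 1.71 and 2.01 FPKM, and Eif2ak4 (GCN2, the amino acid sensor) at 0.981, 1.13, 0.695 and 0.853. PKR was lowest and PERK highest in the combination library, with only PKR lower by the 2-fold mark in both libraries with SAHA.

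Ddit3, which encodes CHOP, a stress factor downstream of ATF4, was at 25.4 FPKM in vehicle, 8.34 under ATRA, 15.6 under SAHA and 411 under both. The combination was 16.2-fold above vehicle, while Atf4 in the same library was below vehicle. The Ddit3 row has the same locus as that of Mars, which was at 8.56, 8.72, 3.37 and 2.91 FPKM and so was not high there. Atf3, another stress factor, was at 3.19, 0.905, 3.36 and 8.49 FPKM, with ATRA lowest and the combination highest. Ppp1r15a (GADD34) and Ppp1r15b (CReP), the regulatory subunits that bring a phosphatase to eIF2, were at 27.0, 5.56, 2.32 and 12.0 FPKM and at 9.90, 7.62, 4.36 and 3.17 FPKM.

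**Figure D5:**
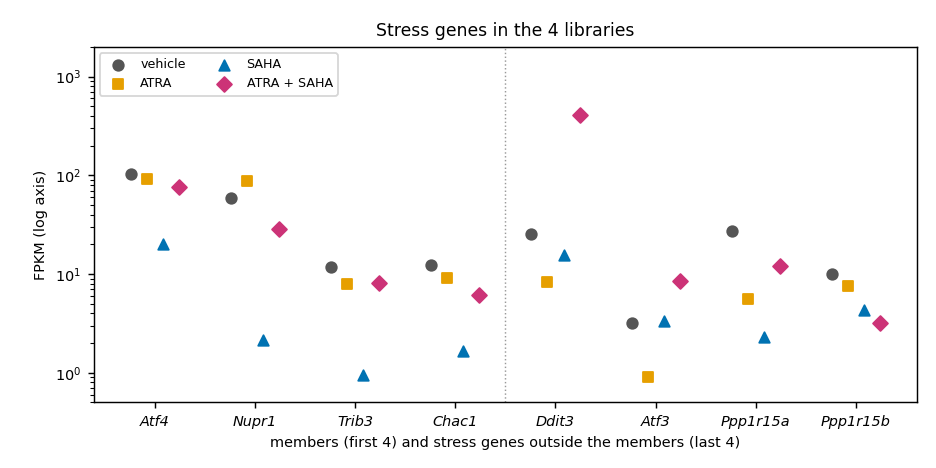
FPKM (log axis) of 4 members and of 4 stress genes outside them in the 4 libraries, 1 point per library. With both compounds Ddit3 stands at 411 FPKM, above its other 3 values, while Atf4, Nupr1, Trib3 and Chac1 lie between their SAHA and vehicle values.

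Other targets of the pathway were partly low with SAHA. Of 10 counted ATF4 targets outside the members, 6 were lower and 1 higher with SAHA, where 16.0% of all counted genes were lower and 7.88% higher. Eif4ebp1, a translation inhibitor gene, was at 78.0 FPKM in vehicle, 88.5 under ATRA, 25.8 under SAHA and 47.6 under both, and Gadd45a, a growth arrest gene, at 8.38, 7.12, 0.876 and 9.06. Herpud1, which acts in the breakdown of endoplasmic reticulum proteins, was at 10.9, 10.1, 1.04 and 5.65 FPKM, and Xpot, a tRNA exporter gene, at 6.41, 5.14, 1.55 and 1.09. The combination was near vehicle for Gadd45a and near SAHA for Xpot. Map1lc3b, an autophagosome gene, was instead high in both libraries with SAHA, at 54.8 and 55.3 FPKM against 21.9. Of 20 cytosolic aminoacyl-tRNA synthetases, 7 were lower and 1 was higher with SAHA. Their median was -0.73, and that of all counted genes -0.12. Gars, for glycine, was at 49.9, 49.3, 13.4 and 23.4 FPKM, and Qars, for glutamine, was the 1 that was higher (1.13).

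Other genes of amino acid and one-carbon metabolism were also counted with SAHA, where 16.0% of all counted genes were lower and 7.88% higher. Of 12 counted one-carbon and glycine genes outside the members, 1 was lower with SAHA (Atic, of purine synthesis, -1.17), and the median was -0.31. Of 18 counted amino acid enzymes outside the members, 3 were higher and 1 (Oat, of ornithine metabolism, -1.02) was lower, with a median of 0.09. The 3 were Aldh4a1, of proline breakdown (2.06), and Bckdha and Bckdhb, of branched-chain amino acid breakdown (1.58 and 1.56). Got2, the mitochondrial counterpart of Got1, was at 21.3 FPKM in vehicle and 22.4 with SAHA. Of 5 counted amino acid transporters outside the members, 1 was lower, Slc38a7 (-1.09). Oat and Slc38a7 lay close to the mark, and genes outside the members were not recomputed singly with centring or rescaling.

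The arm of the unfolded protein response run by ATF6 and XBP1 had medians above 0, though its genes differed in direction. Against vehicle, 8 of its 14 genes lay above 0 and 6 below it with SAHA, and 10 above and 4 below with both. Of its 14 counted genes 3 were higher and 1 was lower with SAHA, with a median of 0.52. The 3 were Calr (1.84), Hyou1 (1.64) and Creld2 (1.58), all of protein folding. With both compounds 7 were higher and 1 lower, with a median of 1.09. Of all counted genes 7.88% were higher and 16.0% lower with SAHA, with a median of -0.12. With both compounds these shares were 11.1% and 12.6%, and the median was 0.04. Hspa5, the chaperone BiP, was at 47.1 FPKM in vehicle, 63.6 under ATRA, 81.0 under SAHA and 367 under both. Creld2, another chaperone-like target, was at 1.84, 2.49, 7.47 and 10.9 FPKM, and Xbp1 itself was the lower gene, at 9.40, 10.4, 1.79 and 2.56 FPKM. Dnajb9 (-0.48), Edem1 (-0.76) and Ern1 (-0.57) were also below vehicle with SAHA, short of the 2-fold mark. With both compounds they were at -0.78, -0.57 and -0.53. All 5 listed factors known to regulate single members were lower with SAHA: Myc (-2.52), Trp53 (-2.46), Nfe2l2 (-1.25), the glucocorticoid receptor Nr3c1 (-1.16) and Hif1a (-1.06). The share of all counted genes lower with SAHA was 16.0%. Hif1a lay close to the mark, and these factors were not recomputed with centring or rescaling. The part of these 5 factors in the members' levels was not tested.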

How the data were processed

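Total RNA was depleted of ribosomal RNA, and reads were trimmed with Trimmomatic 0.32 and quantified with Cuffdiff on mm10, per the submitters' processing notes and the labels' protocols. The deposited values are FPKM computed by the authors, 1 column for each library, per the file headers. The aligner, annotation, strand setting and scaling between libraries were not given in the sources used here, and raw counts were not used here. From these values log2(FPKM + 1) differences were computed with Python 3.11.15 and pandas 2.3.3 for 5 comparisons. No test was possible with 1 library per group. Genes with a mean under 1 FPKM were left out of counts. The fragment step was estimated as the median of FPKM times length within a narrow preset range. It used 268 to 309 genes with 1 GENCODE transcript of 1000 to 4000 bases. Library totals were 258214 to 309001 FPKM. Gene coordinates are from GENCODE M21 and promoters from RefSeq.

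The members and gene lists were chosen with earlier results of these data known. Every member is described by role. From the other lists, eIF2 kinase and phosphatase genes, Ddit3 and Atf3 were named whatever their values, and up to 4 genes per list by size of difference. Got2, Mars, Map1lc3b, Qars, Atic, Oat, Slc38a7, Calr, Hyou1, Dnajb9, Edem1, Ern1 and Hif1a were named after their values were seen. The 2-fold mark was run on simulated data whose set changes all exceeded it and lay only in the more abundant genes. The noise was taken from the difference between the ATRA and vehicle libraries. That run therefore says nothing about low genes or about variation between replicates.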

Additional observations from a re-analysis of the deposited data

Results flagged for a closer look

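In 3 stress genes outside the members, the difference made by ATRA had opposite signs without and with SAHA, each past the 2-fold mark. For Ddit3 it was -1.50 without SAHA and 4.64 with it. For Ppp1r15a it was -2.10 and 1.97, and for Atf3 -1.14 and 1.12. With 1 library per group this difference was not tested. No counted member met the same condition: the difference made by ATRA in Atf4 was -0.15 without SAHA and 1.86 with it.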

How the results depend on the processing

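Counts and medians of members were recomputed with a pseudocount of 0.1, with no filter, with a mean of at least 5 FPKM, with centring on the median of all counted genes, after rescaling without small RNAs, histones and the 10 highest rows and, for medians, as means. The count of members lower with SAHA, 29 of 34, was 28 to 30 of the members counted under these settings except with a mean of at least 5 FPKM, where it was 20 of 23. Shmt1 left it with centring and with rescaling, and Slc7a5 entered it with the pseudocount of 0.1. Over all genes the count lower with SAHA was 1381 of 8616, 1946 with the pseudocount of 0.1 and 1157 with centring. It was 1216 of 8544 with rescaling, 1487 of 23359 with no filter and 596 of 2958 with a mean of at least 5 FPKM. The median of -1.69 moved by less than 1.5 times under all settings. The count lower with both compounds than with vehicle, 17, was 21 with the pseudocount of 0.1 and 23 with rescaling, which added Cebpb, Chac1, Ddit4, Psat1, Slc3a2 and Slc7a1. Over all genes these counts were 1089 and 1554 of 8616, and 1250 of 8544. The count higher with both compounds than with SAHA, 9, was 12 with the pseudocount of 0.1, and 6 with centring and with rescaling. Over all genes those were 262, 490 and 191 of 8616, and 165 of 8544. With a mean of at least 5 FPKM, which leaves 23 members, 11 were lower with both compounds than with vehicle and 11 than with ATRA, the median of both compounds against SAHA was 0.76 and the median departure was 0.88 in place of 0.57. Of all 2958 genes at that mean, 409 were lower with both compounds than with vehicle and 419 than with ATRA. Their median against SAHA was 0.24. After rescaling, the members' median against SAHA was 0.27 and that of all genes -0.05. With a pseudocount of 0.1, 1 member (Got1) was higher with both compounds than with vehicle, where 1484 of 8616 genes were higher. With that pseudocount, with centring and with rescaling, 1 member (Slc1a5) was lower with both compounds than with SAHA, where the count had been 0. Over all genes that count was 185, 111 and 134 at these settings, where it had been 80. The causes were not tested. No paired analysis was possible because each group has 1 library. No member past the 2-fold mark changed sign in any comparison under the pseudocount, centring or rescaling. Low levels such as those of Slc7a3, Cbs, Bcat1 and Stc2 rest on few fragments, and their folds are imprecise.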
